A study of Drosophila melanogaster with 24 samples.

Results

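The genes described here act around egg activation and the first cleavage cycles of Drosophila melanogaster: png, plu, gnu, smg, dhd, BigH1 and otu. They were chosen by name, as all probes whose symbol in the platform annotation is one of these 7, and each gene had 1 probe. They are 7 of the 11663 genes named by the 13455 probes with 1 gene symbol, among 23808 probes in all. RNA of whole animals from 8 life-cycle stages was compared on two-colour spotted arrays with a common reference made of RNA from 0-4 h embryos. Embryos of 4-8 h, 8-12 h and 12-16 h, taken from egg lays of 4 h that were then aged, made up the first 3 stages, followed by larvae of different ages in a pool, hand-picked pupae of stages 1, 2 and 3, and young adults collected as males and females. No genotype, strain or treatment is stated in the labels. Each stage had 3 arrays, of which 2 could be used for pupal stage 1, so 23 arrays entered the comparisons. Every value is a log2 ratio of stage over reference, centred on the median of its array. A value below 0 therefore means a ratio of stage over reference below that of the median probe. Folds, percentages of the reference and the words lower and higher are meant on this centred scale. Before centring, the stage medians of all probes ran from -1.76 at pupal stage 2 to 0.65 at 4-8 h. A ratio says nothing of the absolute level, and in whole animals fewer cells of a type and less RNA per cell cannot be told apart.

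A Drosophila egg is loaded with maternal messages during oogenesis and is activated when it passes down the oviduct. Activation switches on the PAN GU (PNG) kinase, in which png encodes the kinase and plu and gnu the subunits it needs for activity; PNG drives the translation of stored messages, among them smg, and keeps the S and M phases of the early cleavages in order. Smaug, the product of smg, binds maternal messages and brings about their repression and decay, so that the embryo comes under the control of its own genome. The germ-line thioredoxin Deadhead (dhd) reduces the disulfide bonds of sperm protamines at fertilization, BigH1 is the linker histone of early embryonic chromatin, and otu encodes a deubiquitinase needed for germ cells to develop into eggs.

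Of the 7 genes, 6 were lower at all stages after 4-8 h than in the 0-4 h embryo, plu moderately and the others strongly, and png passed as lower at none. In limma fits over all probes, with p-values adjusted by Benjamini and Hochberg over 23808 probes and a threshold of 0.05, 5 of 7 members passed as lower at 4-8 h, where 5.94% of all probes did. At each later stage 6 of 7 passed as lower, against 5.71% of all probes at 8-12 h, 12.5% at 12-16 h, 14.7% in larvae, 16% at pupal stage 1, 16% at pupal stage 2, 19.5% at pupal stage 3 and 19.2% in adults. No member passed as higher at any stage, where 1.49%, 3.83%, 16.8%, 8.76%, 7.58%, 9.3%, 9.53% and 15.2% of all probes did, in the same order of stages. The median of the 7 fitted values lay between -4.53 and -3.23 over the 8 stages, while the median of all probes lay between 0.00 and 0.08 at every stage. On the single arrays, 138 of 138 values of the 6 genes other than png were below 0. The test sets each stage against 0 and leaves out the spread of the reference itself, and it measures the spread between arrays, which the labels call independent experiments but do not trace to separate collections of animals.

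**Figure D1:**
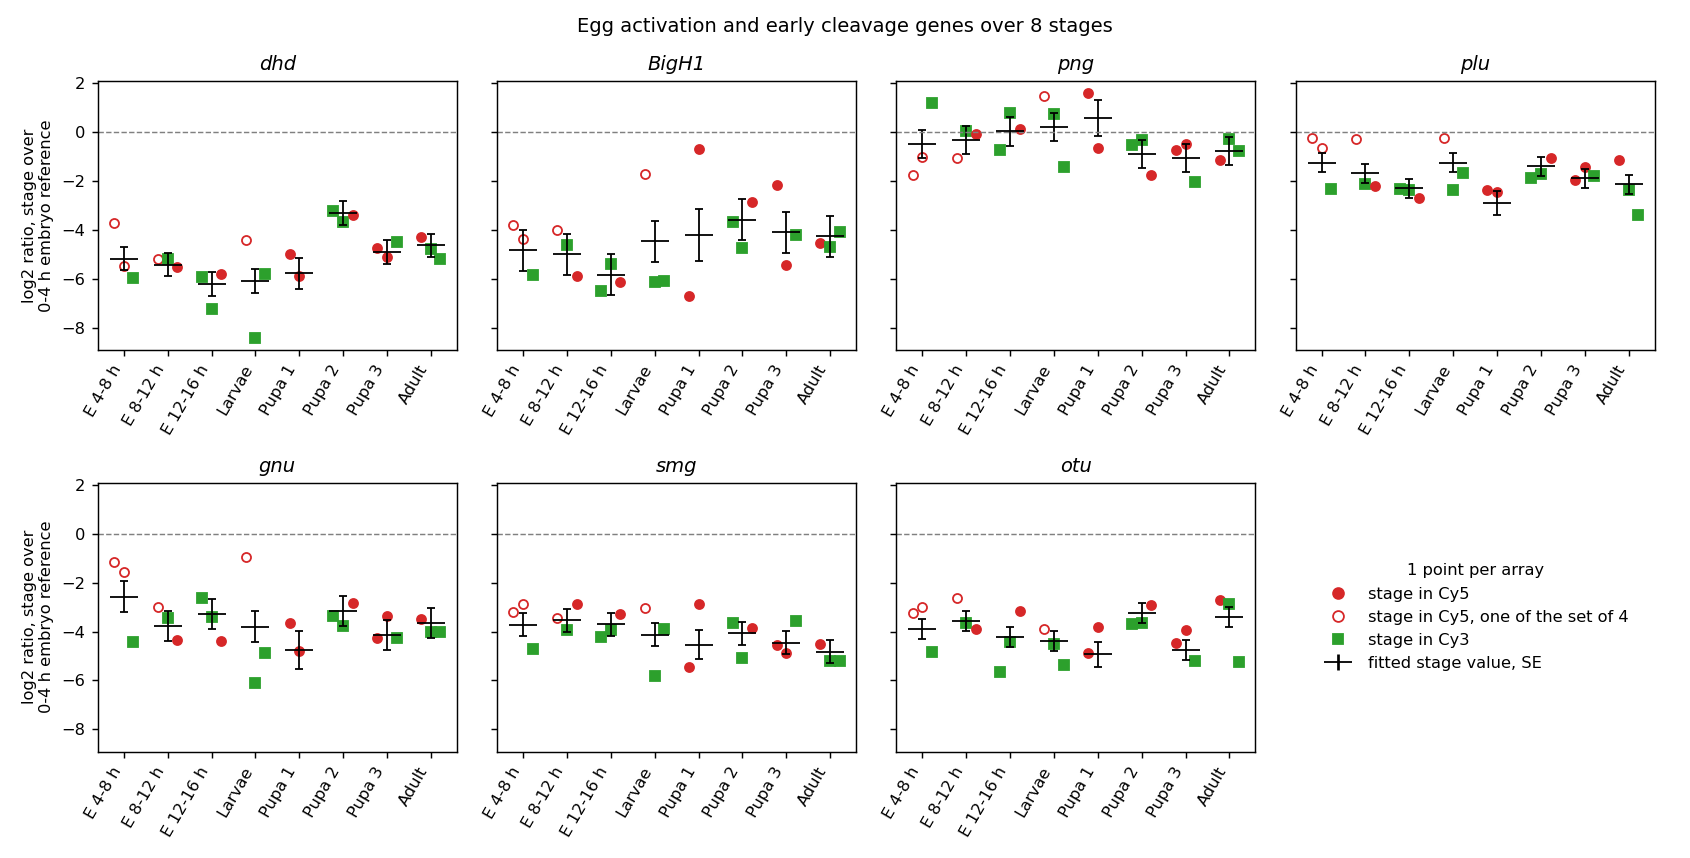
Log2 ratio of stage over the 0-4 h embryo reference (vertical axis) at 8 stages (horizontal axis) for the 7 genes, with 1 point per array. Circles mark the stage in Cy5, squares the stage in Cy3, and open circles the set of 4 arrays with the narrowest spread. A black bar with its SE gives the fitted stage value. The points of 6 genes lie below the dashed line at 0 on all 23 arrays, while those of png lie on both sides of it.

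The arrays as a whole set limits to these values. Deposited array medians ran from -1.89 to 2.38, so each array was centred. The 4 arrays with the narrowest spread had an interquartile range of 0.834 to 1.00, against 1.05 to 2.20 on the other 19. Array c of 8-12 h came next at 1.05, so no gap in spread marks the 4 off. They were arrays a and b of 4-8 h, array a of 8-12 h and array a of larvae, all with the stage in Cy5. The dye term of the fit, Cy5 minus Cy3, passed for 3632 probes, and for 1394 once these 4 arrays were left out. The number of arrays limits the precision, and a signal over background could not be given because the 23 ratio arrays come without channel intensities. Both usable arrays of pupal stage 1 had the stage in Cy5, so its fitted values lean on the dye term and can lie outside the values of its arrays. As a check on the labelled stages, 10 of 10 probes for larval fat body and salivary gland genes were higher in larvae than in the reference. Of all probes 8.76% were higher there. The same 10 of 10 were higher at pupal stage 1, with a list median of 5.86 against 4.84 in larvae. The check therefore does not tell larvae from pupal stage 1.

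In the PNG kinase complex the subunit genes gnu and plu were lower than the reference, gnu at 8 and plu at 7 of the 8 stages, and the kinase gene png was the only member that passed at no stage. Its values on arrays a, b and c were -1.77, -1.01 and 1.21 at 4-8 h, -1.03, 0.07 and -0.07 at 8-12 h, -0.71, 0.80 and 0.15 at 12-16 h, and 1.49, 0.76 and -1.44 in larvae. They were 1.60 and -0.65 at pupal stage 1, -0.53, -0.31 and -1.75 at pupal stage 2, -0.71, -0.49 and -2.04 at pupal stage 3, and -1.12, -0.26 and -0.77 in adults. The values crossed 0 within 5 of the 8 stages, and 16 of 23 arrays were below it. The fitted values of png ran from -1.04 at pupal stage 3 to 0.60 at pupal stage 1, with an SE of 0.58 (0.74 at pupal stage 1), and the lowest adjusted p was 0.194.

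The 2 spots of the png probe disagreed more than those of almost any other probe, which bears on how much its ratios can show. The median over arrays of the SD between the 2 spots was 1.37 for png, at the 99.7th percentile of all probes, against 0.39 for the median probe and 0.22 to 0.44 for the other 6 members. The spots of png lay within an SD of 0.333 on 3 of 23 arrays, and 29 of its 46 spot values were below 0. For the other 6 genes 274 of 275 spot values were below 0, the exception being 1 spot of BigH1 at 0.78 on array a of pupal stage 3, whose partner was at -5.13.

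**Figure D2:**
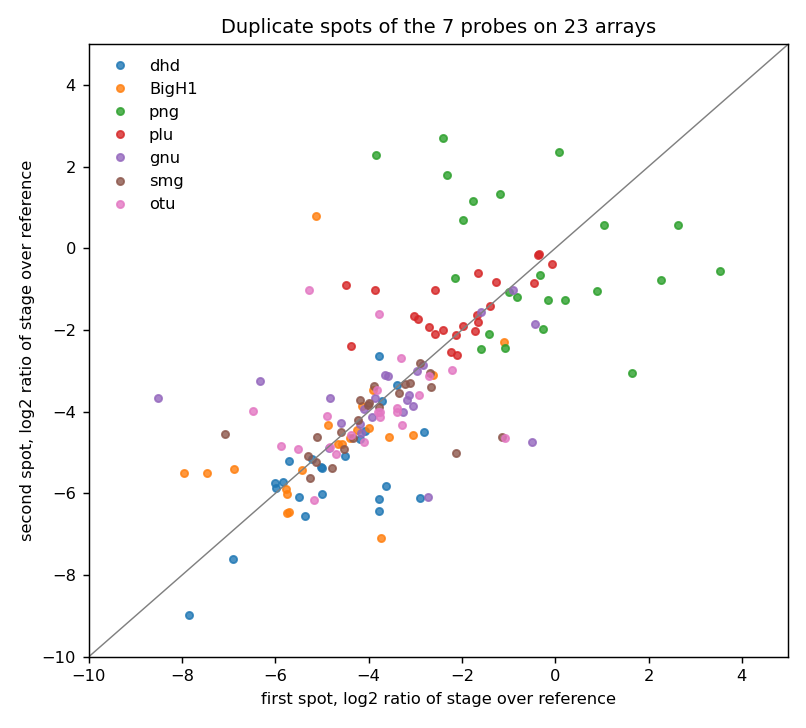
Log2 ratio of stage over reference of the second spot (vertical axis) against the first (horizontal axis) for the 7 probes, with 1 point per array and a grey line of equality. Most points of the 6 other genes lie near the line in the lower left, whereas the green points of png spread away from it, with a median SD of 1.37 between spots.

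The subunit gene plu, which encodes an ankyrin-repeat protein, was moderately lower than the reference. On arrays a, b and c plu was at -0.24, -0.64 and -2.34 at 4-8 h, -0.26, -2.12 and -2.20 at 8-12 h, -2.32, -2.35 and -2.69 at 12-16 h, and -0.23, -2.35 and -1.66 in larvae. They were -2.34 and -2.44 at pupal stage 1, -1.88, -1.73 and -1.05 at pupal stage 2, -1.94, -1.40 and -1.80 at pupal stage 3, and -1.13, -2.38 and -3.39 in adults. The highest plu values, those above -1, all came from the set of 4 arrays with a narrow spread. Over that set the mean of plu was -0.34 (n = 4), against -1.90 on the other 8 Cy5 arrays and -2.21 on the 11 Cy3 arrays, and its dye term of 0.98 passed (limma, adjusted p = 0.0376) but not without the set (0.47, adjusted p = 0.438). The part of these arrays in the stage values of plu was not tested.

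At 4-8 h the fitted value of plu, -1.24 ± 0.39 (SE, n = 3 arrays), missed the threshold (limma, adjusted p = 0.0561), and with the set of 4 as a block in the fit it was -1.88 (adjusted p = 0.00558). At the later stages plu passed, from -1.25 ± 0.39 in larvae (adjusted p = 0.0238), which is 2.38-fold lower than the reference, to -2.88 ± 0.49 at pupal stage 1 (adjusted p = 0.000293), 7.36-fold lower. The latter lies below both of its arrays through the dye term: the plain means were -2.39 at pupal stage 1 and -2.46 at 12-16 h. The calls of plu at 8-12 h, in larvae and at pupal stage 2 ended when single arrays were left out: the adjusted p was 0.158 at 8-12 h without array c, 0.186 in larvae without array b and 0.0887 at pupal stage 2 without array c.

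The third gene of the complex, gnu, which encodes the activating subunit, was lower than the reference at all 8 stages. Arrays a, b and c gave gnu -1.14, -1.57 and -4.43 at 4-8 h, -2.98, -3.45 and -4.34 at 8-12 h, -2.63, -3.38 and -4.40 at 12-16 h, and -0.96, -6.10 and -4.87 in larvae. They were -3.63 and -4.78 at pupal stage 1, -3.36, -3.77 and -2.84 at pupal stage 2, -4.25, -3.37 and -4.25 at pupal stage 3, and -3.46, -4.03 and -4.03 in adults. The values above -2 all came from the narrow set, but array a of 8-12 h, also in that set, was at -2.98. The mean over the set was -1.66 (n = 4), against -3.88 on the other 8 Cy5 arrays and -4.03 on the 11 Cy3 arrays. Fitted values ran from -2.56 ± 0.62 at 4-8 h (limma, adjusted p = 0.0139), 5.91-fold lower, to -4.76 ± 0.79 at pupal stage 1 (adjusted p = 0.000215), 27-fold lower. Without the set of 4 arrays the 4-8 h value was -4.47 (adjusted p = 0.0118), from 1 array whose spread is assumed to be that of the other stages. Without array c it was -1.74, with an adjusted p of 0.292, and without array b it was -2.79, with an adjusted p of 0.0548.

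The target of PNG in this group, smg, was lower than the reference at all 8 stages and had the narrowest range of stages. The ratios of smg on arrays a, b and c were -3.21, -2.85 and -4.72 at 4-8 h, -3.45, -3.93 and -2.87 at 8-12 h, -4.22, -3.95 and -3.27 at 12-16 h, and -3.03, -5.82 and -3.89 in larvae. They were -5.44 and -2.89 at pupal stage 1, -3.63, -5.08 and -3.83 at pupal stage 2, -4.54, -4.86 and -3.57 at pupal stage 3, and -4.49, -5.18 and -5.19 in adults. All 23 values lay between -5.82 and -2.85, and the arrays of neighbouring stages overlapped throughout. The fitted value was -3.72 ± 0.47 at 4-8 h (limma, adjusted p = 8.17e-05), 13.1-fold lower, and it was lowest in adults, at -4.83 ± 0.47 (adjusted p = 2.33e-07), 28.4-fold lower. Its range over the 8 stages, 1.29, was at the 19.1th percentile of all probes. At 4-8 h, 10 of all probes had a lower fitted value than smg, and in adults 15 had.

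Among the genes of fertilization and early chromatin, dhd was lower than the reference at all 8 stages and reached the lowest fitted value of the group. Arrays a, b and c put dhd at -3.73, -5.46 and -5.96 at 4-8 h, -5.18, -5.20 and -5.51 at 8-12 h, -5.92, -7.25 and -5.78 at 12-16 h, and -4.43, -8.41 and -5.79 in larvae. They were -4.97 and -5.87 at pupal stage 1, -3.20, -3.66 and -3.37 at pupal stage 2, -4.72, -5.10 and -4.51 at pupal stage 3, and -4.28, -4.79 and -5.19 in adults. The 3 arrays of pupal stage 2 were higher than all arrays of every other stage. At 4-8 h the fitted value was -5.17 ± 0.49 (limma, adjusted p = 3.56e-06), so dhd message stood at 2.78% of the reference, 36-fold lower. It was lowest at 12-16 h, at -6.20 ± 0.49 (adjusted p = 1.7e-08), or 1.36% of the reference and 73.5-fold lower. At 12-16 h and in larvae no probe on the array had a lower fitted value than dhd, and at 4-8 h and 8-12 h 1 probe had.

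The test for a difference among the stages of dhd passed only narrowly. A moderated F-test for any difference among the 8 stages passed for dhd (limma, adjusted p = 0.0482) and for no other member, so for 1 of 7, where 21% of all probes passed. In the order of fitted values pupal stage 2 came first at -3.29 ± 0.49, which is 10.2% of the reference, followed by adults at -4.63, pupal stage 3 at -4.90, 4-8 h at -5.17, 8-12 h at -5.42, pupal stage 1 at -5.78, larvae at -6.09 and 12-16 h at -6.20. The step from pupal stage 2 to adults was 1.34 ± 0.68 with arrays that did not overlap, and each further step was under 1 SE. The rise from pupal stage 1 to 2 was 2.49 ± 0.81 with no overlap of arrays, yet it missed the threshold (unadjusted p = 0.00581, adjusted p = 0.211). The F-test itself lay close to the threshold: leaving out 1 array gave adjusted p-values from 0.0157 to 0.155, with 18 of 23 such fits past 0.05, and averaging the pair of closely alike arrays (a and b) within pupal stage 2 and within pupal stage 3 gave 0.169.

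BigH1 was lower than the reference at all 8 stages but varied most between arrays. For BigH1, arrays a, b and c gave -3.80, -4.35 and -5.83 at 4-8 h, -4.0, -4.60 and -5.88 at 8-12 h, -6.48, -5.41 and -6.12 at 12-16 h, and -1.70, -6.15 and -6.09 in larvae. They were -6.72 and -0.68 at pupal stage 1, -3.68, -4.72 and -2.86 at pupal stage 2, -2.17, -5.42 and -4.19 at pupal stage 3, and -4.52, -4.68 and -4.09 in adults. The values nearest 0 were array b of pupal stage 1, which rests on 1 spot because the other held no usable value, array a of larvae, which belongs to the narrow set, and array a of pupal stage 3, whose spots differed by an SD of 4.18. The fitted value was -4.84 ± 0.84 at 4-8 h (limma, adjusted p = 0.00137), 28.5-fold lower, and -5.83 ± 0.84 at 12-16 h (adjusted p = 2.1e-05), 57-fold lower. At pupal stage 1 it was -4.22 ± 1.07 (adjusted p = 0.00684), and without array a of that stage it was -1.19 with an adjusted p of 0.601. At 4-8 h, without the narrow set, the value was -5.78 and missed the threshold with 1 array left, its spread again taken from the other stages (adjusted p = 0.105). The F-test for any difference among the 8 stages did not pass for BigH1 (limma, adjusted p = 0.774). Its arrays in adults lay above those at 12-16 h without overlap, but that difference missed the threshold (limma, adjusted p = 0.401). Each step in the order of its fitted values was under 1 SE, though sorting makes such steps small.

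The oogenesis gene otu was also lower at all 8 stages. The ratios of otu on arrays a, b and c were -3.26, -3.00 and -4.85 at 4-8 h, -2.60, -3.64 and -3.91 at 8-12 h, -5.67, -4.41 and -3.15 at 12-16 h, and -3.89, -4.50 and -5.36 in larvae. They were -4.88 and -3.80 at pupal stage 1, -3.70, -3.65 and -2.92 at pupal stage 2, -4.48, -3.95 and -5.21 at pupal stage 3, and -2.69, -2.86 and -5.23 in adults. In adults array c stood 2 or more units below the others, and the 2 spots of otu were unlike on all 3 adult arrays, with SDs of 1.53, 2.52 and 1.77. The fitted value was -3.89 ± 0.40 at 4-8 h (limma, adjusted p = 9.21e-06), 14.9-fold lower. It was highest at pupal stage 2, at -3.23 ± 0.40 or 10.7% of the reference, and lowest at pupal stage 1, at -4.92 ± 0.52 (adjusted p = 2.91e-06), 30.3-fold lower. That rank rests on the dye term, since the plain mean was -4.34 at pupal stage 1 against -4.59 in larvae and -4.54 at pupal stage 3, and -3.38 at 8-12 h against -3.42 at pupal stage 2. The dye term of otu was 1.16 (adjusted p = 0.0198), and 1.01 without the narrow set (adjusted p = 0.17).

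**Figure D3:**
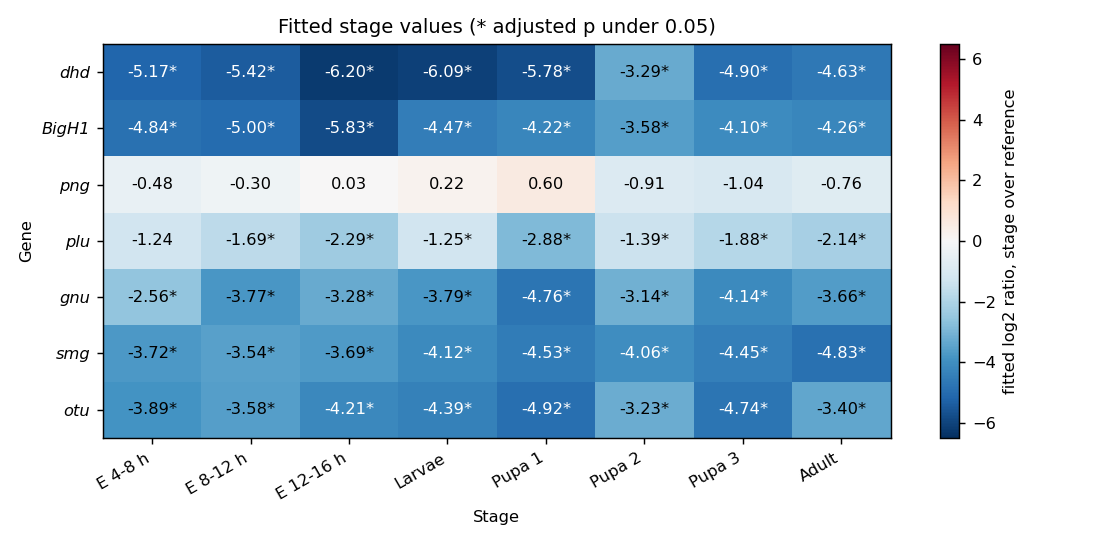
Fitted log2 ratio of stage over reference for the 7 genes (rows) at 8 stages (columns), printed in each cell and coloured from blue (below 0) to red (above 0), with an asterisk where the adjusted p was under 0.05. Of the 56 cells 47 carry an asterisk, all below 0, and the row of png and the 4-8 h cell of plu carry none.

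No member passed a comparison between 2 stages: over 8 such comparisons, 0 of 7 passed in each. The share of all probes that passed in either direction was 0.0126% for 8-12 h against 4-8 h, 5.11% for 12-16 h against 8-12 h, 10.2% for larvae against 12-16 h and 0.995% for pupal stage 1 against larvae. It was 0.638% for pupal stage 2 against 1, 0.34% for pupal stage 3 against 2, 1.18% for adults against pupal stage 3 and 15.3% for adults against 12-16 h. At an unadjusted p under 0.05 limma gave 0, 0, 0, 1, 3, 2, 1 and 1 members in these comparisons. The share of all probes at that unadjusted threshold is not given here, so these counts cannot be set against it. The members counted were dhd, plu and otu. The largest difference after dhd was that of otu at pupal stage 2 over stage 1, at 1.69 ± 0.67 (limma, unadjusted p = 0.0198, adjusted p = 0.343). Sorted by fitted value, 48 of the 49 steps between neighbouring stages of the 7 genes were smaller than 1 SE of the step. The exception was the step of dhd below pupal stage 2. Sorting makes such steps small, so they do not show that the stages were alike.

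The intervals show how large a change could have been missed. For 8-12 h against 4-8 h the difference of dhd was -0.25, with a 95% interval from -1.67 to 1.18. For adults against 12-16 h, dhd differed by 1.57 (95% interval 0.14 to 2.99), which did not pass over all probes (adjusted p = 0.131).

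The highest fitted value fell at pupal stage 2 for 3 genes: dhd, BigH1 and otu. The share of all probes that were highest at this stage is not given here, so the count cannot be set against it. BigH1 and otu did not pass the F-test over the 8 stages (limma, adjusted p = 0.774 and 0.209). By plain array means pupal stage 2 was the highest stage for dhd alone. The means of BigH1 were -3.70 at pupal stage 1 and -3.76 at pupal stage 2, and those of otu are given above. A list of 16 probes for yolk protein, vitelline membrane and chorion genes was taken for the follicle cells of the ovary and for yolk. From this list 7 were higher than the reference at pupal stage 2, 1 at pupal stage 3 and 7 in adults. The shares of all probes there were 9.3%, 9.53% and 15.2%. Calls as higher also came from larvae (3), 12-16 h embryos (2), pupal stage 1 (1) and 4-8 h embryos (1). The shares of all probes for these were 8.76%, 16.8%, 7.58% and 1.49%. Of the 7 at pupal stage 2, 4 were probes of yolk protein genes (Yp1, Yp3 and both of Yp2). The others were Cp38, Cp36 and Vm26Aa, while Vm32E, Cp19, Cp15 and Cp16 were at -0.01, -0.04, -0.47 and -0.19. Cp36 also passed as higher in 4-8 h embryos (1.42, limma, adjusted p = 0.00599) and larvae (1.00, adjusted p = 0.0208). Vm26Aa did so in 12-16 h embryos (1.08, limma, adjusted p = 0.0181) and larvae (0.96, adjusted p = 0.042). Calls in this list were therefore not confined to pupal stage 2 and adults. The mean over these 16 probes was 1.40 to 1.45 on the 3 arrays of pupal stage 2, -0.23 to 0.07 at pupal stage 3 and 1.39 to 2.19 in adults. One of the 2 probes of Yp2, a yolk protein made by fat body and follicle cells, had fitted values of 4.39 at pupal stage 2, 0.24 at pupal stage 3 and 6.22 in adults. Of 20 testis probes 12 were higher at pupal stage 2, 8 at pupal stage 3 and 12 in adults. Of 6 probes for other female germ-line genes none was higher at these stages, and 5 were lower at each of the 3, where 16%, 19.5% and 19.2% of all probes were. The reference itself holds maternal messages, so a count against it cannot show whether germ cells were present. Between stages, 1 of the 6 was higher at pupal stage 2 than at stage 1, and 1 in adults than at 12-16 h. None passed between pupal stages 3 and 2 or between adults and pupal stage 3. The part of these cell types in the values of dhd, BigH1 and otu was not tested.

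**Figure D4:**
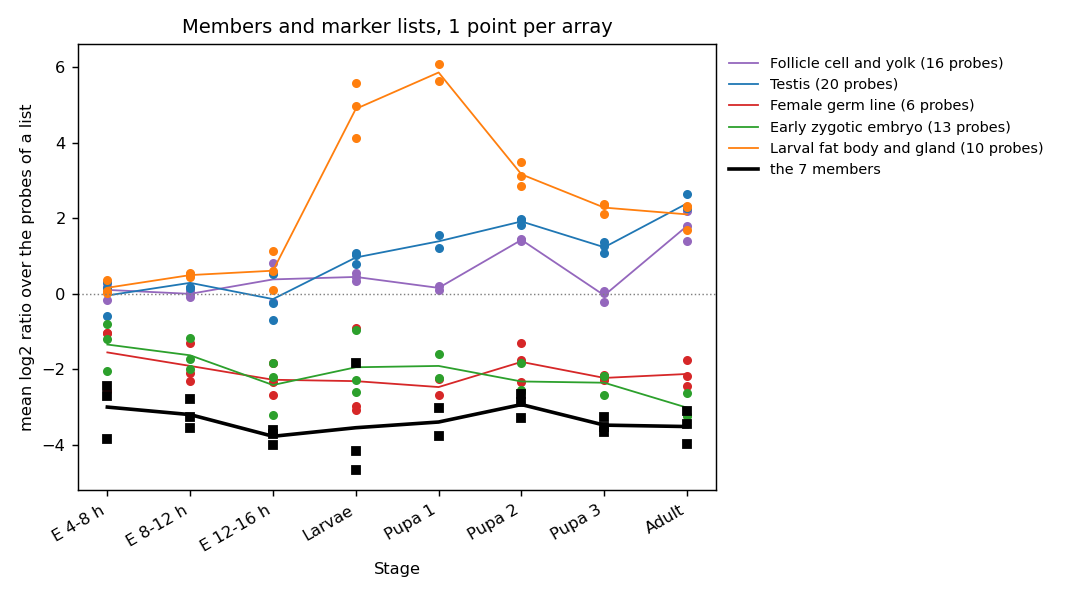
Mean log2 ratio of stage over reference (vertical axis) over the probes of 5 marker lists and over the 7 members, at 8 stages (horizontal axis), with 1 point per array and lines through the stage means. The mean of the 7 members stays below 0 on every array. The mean of the follicle cell and yolk list rises to between 1.40 and 1.45 at pupal stage 2 and to between 1.39 and 2.19 in adults.

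The genes most like dhd in profile did not share its level. Among 3730 probes with 1 symbol that also passed the F-test, the 5 with the highest Pearson r over the 8 fitted stage values were Hsp60C (0.97), a mitochondrial chaperonin gene, clumsy (0.96), which encodes a glutamate receptor subunit, TTLL6A (0.91), Cpr76Ba (0.90), a cuticle protein gene, and CG6565 (0.89). At pupal stage 2 the fitted log2 ratios were 2.40 for Hsp60C, 3.38 for clumsy and -0.25 for CG6565, against -3.29 for dhd. The likeness is one of shape over 8 points from shared arrays, with each gene several log2 units above dhd. Among the members, the highest r over the 8 stages was 0.72, between dhd and BigH1, and plu and gnu had 0.67 over the stages and 0.71 over the 23 arrays. The latter figures include the narrow set of arrays that both genes share.

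The genes next to the members on the chromosome, taken from the order of genes in RefSeq, went both ways. Of 16 probes for 14 flanking genes, 8 passed as lower at 1 or more stages and as higher at none. Another 6 passed as higher and never as lower, and 2 passed at none. The share of all probes with such calls over the 8 stages is not given here, so these counts cannot be set against it. CG33181 beside otu was lower at 8 stages, CG5087 beside smg at 6 and RpS18 beside plu at 5. TrxT, the testis thioredoxin gene beside dhd, was near 0 in embryos, with fitted values of 0.38, -0.32 and -0.68, and was higher than the reference from pupal stage 1 onwards, reaching 2.59 ± 0.37 in adults (limma, adjusted p = 2e-05), where dhd was at -4.63. Probe sequences were not used here, so hybridization between these related messages could not be assessed. Cp38, a chorion protein gene beside otu, passed as higher at 2 stages, with 2.43 at pupal stage 2 and 3.21 ± 0.49 in adults (adjusted p = 3.53e-05). PCNA, the DNA polymerase clamp gene beside plu, was lower at 7 of 8 stages and stood at -3.71 ± 0.42 in adults (adjusted p = 1.15e-06). CG11417, beside png, was lower at 8 of 8 stages, from -1.30 at 4-8 h to -3.36 at pupal stage 1, where png itself passed at none. The neighbours named were picked after their values were seen.

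**Figure D5:**
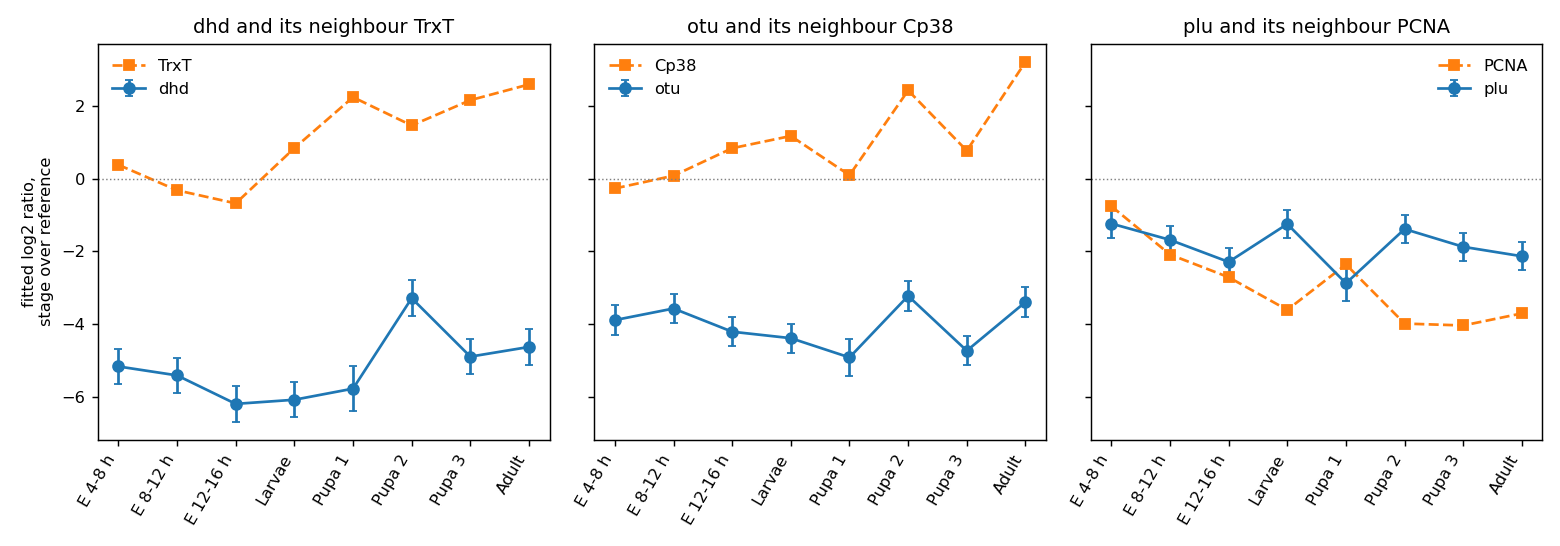
Fitted log2 ratio of stage over reference (vertical axis) at 8 stages (horizontal axis) for dhd, otu and plu (circles, bars are SE) and 1 chromosomal neighbour of each (squares). TrxT rises to 2.59 and Cp38 to 3.21 in adults while dhd and otu stay below -3, and PCNA falls to -4.04 at pupal stage 3 beside plu at -1.88.

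Other genes of egg activation and exit from meiosis were mostly below the reference as well. Of 11 probes in this list 6 passed as lower at 4-8 h, 9 in both older embryo groups, 8 in larvae and at pupal stage 1, 10 at pupal stage 2, and 9 at pupal stage 3 and in adults, with none higher. Of all probes 5.94%, 5.71%, 12.5%, 14.7%, 16.2%, 16%, 19.5% and 19.2% passed as lower, in the order of stages. The list median was -1.32 at 4-8 h and -3.19 in adults, against 0.02 and 0.06 for all probes. At 4-8 h the lowest were twe, a meiotic Cdc25 phosphatase, at -2.84 ± 0.39 (limma, adjusted p = 0.000183), and gwl, the Greatwall kinase, at -1.95 ± 0.48 (adjusted p = 0.0167). The highest of those that passed were wisp, a cytoplasmic poly(A) polymerase, at -1.32 ± 0.31, and sra, a calcineurin regulator needed for egg activation, at -1.65 ± 0.36. By 12-16 h twe was at -4.68 and gwl at -5.49.

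In the list of maternal message repression and decay, to which smg belongs by function, 7 of 15 probes passed as lower at 4-8 h, 6 at 8-12 h, 9 at 12-16 h, 10 at pupal stage 1, 11 in larvae and at pupal stages 2 and 3, and 12 in adults, with none higher. The lowest at 4-8 h were me31B, an RNA helicase of repressed messages, at -3.37 ± 0.37 (limma, adjusted p = 1.39e-05), and cup, a translational repressor that Smaug recruits, at -3.25 ± 0.48 (adjusted p = 0.000301). The highest of those that passed were brat, a repressor, at -0.95 ± 0.28, and Not3, a subunit of the CCR4-NOT deadenylase, at -0.99 ± 0.27. The share of all probes that passed as lower ran from 5.71% at 8-12 h to 19.5% at pupal stage 3. The list median was -0.95 at 4-8 h and -1.83 in adults.

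For genes of the cleavage cycles 6 of 11 probes passed as lower at 4-8 h and 8-12 h, 7 at 12-16 h, 11 in larvae, 7 at pupal stage 1, 8 at pupal stage 2 and 10 at pupal stage 3 and in adults, and 1 passed as higher, the checkpoint kinase gene grp with 0.99 at 12-16 h. The share of all probes that passed as lower ran from 5.71% at 8-12 h to 19.5% at pupal stage 3, and 16.8% passed as higher at 12-16 h. The list median was -1.15 at 4-8 h and -3.92 in adults. Z600, a mitotic inhibitor of the early embryo also known as fruhstart, was at -4.98 ± 0.47 at 4-8 h (limma, adjusted p = 3.69e-06) and stayed between -5.48 and -5.98 afterwards. The checkpoint kinase gene lok was at -2.23 ± 0.40 at 4-8 h (adjusted p = 0.00169), and the highest of those that passed there were nuf at -1.15 ± 0.25 and fs(1)Ya, a nuclear envelope protein of the first cleavage divisions, at -1.36 ± 0.26.

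Among chromatin genes and paralogues of BigH1 and dhd, 3 of 10 probes passed as lower at 4-8 h, 5 at 8-12 h, 6 at 12-16 h, 7 at pupal stage 1, 8 in larvae, 9 at pupal stage 2 and 8 at pupal stage 3 and in adults. The 1 probe that passed as higher from pupal stage 1 on was TrxT. The 3 at 4-8 h were the histone chaperone gene Nap1 at -2.01 ± 0.42, the nucleoplasmin gene Nlp at -1.67 ± 0.29 and the histone variant gene His2Av at -1.14 ± 0.32, which reached -4.17 in adults. Of all probes 5.94%, 5.71%, 12.5%, 14.7%, 16.2%, 16%, 19.5% and 19.2% passed as lower, in the order of stages. The list median was -0.82 at 4-8 h and -1.77 in adults. Of 8 probes for genes that act with otu in the female germ line, 1 passed as lower at 4-8 h, at 8-12 h, at pupal stage 1 and in adults. In larvae and at pupal stage 2 the count was 2, and at 12-16 h and pupal stage 3 it was 3. Counts of 1 or 2 of 8 are near the shares of all probes just given. The list median was 0.32 at 4-8 h and -0.07 in adults. Those that passed as higher were probes of ovo, a germ-line transcription factor gene, with all 3 at 12-16 h from 1.34 to 2.20, 1 at 8-12 h and 1 at pupal stage 1, and bgcn with 1 probe each at pupal stages 1 and 3. These 2 genes and grp were named after their values were seen. Of all probes 3.83% were higher at 8-12 h, 16.8% at 12-16 h, 7.58% at pupal stage 1 and 9.53% at pupal stage 3. The one lower at 4-8 h was Hrb27C, an RNA-binding protein gene, at -1.18 ± 0.28 (limma, adjusted p = 0.0128). Early zygotic genes, whose messages are made at the time the reference covers, passed as lower with 6 of 13 probes at 4-8 h and 12 of 13 in adults. The difference between these lists and the members was not tested.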

How the data were processed

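The deposited table held, for 23 arrays, log2 ratios of Cy5 over Cy3 per spot, as the labels define them; the images came from ScanArray 3.1 and were measured in GenePix 4.0, per the labels' protocols. The authors used the SD between duplicate spots to select hybridizations, per the labels. For background correction and normalization, the method is not given in the sources used here. Array c of pupal stage 1 held a 1-channel signal and entered no comparison. The 633 values (0.0578%) at either end of the scale became missing, arrays were centred on the median, those with the stage in Cy3 multiplied by -1, and duplicate spots (1984 positions apart) averaged to 23808 probes. Before this turn 132 of 132 array pairs of opposite dye correlated below 0, and after it none did.

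Each probe was fitted with limma 3.58.1 (lmFit, eBayes) in R 4.3.3, with 1 coefficient per stage and a dye term, over 23 arrays (residual df 14, prior df 5.71), and p-values were adjusted by Benjamini and Hochberg over all probes. Array letters did not pair arrays across stages. Alternatives covered centring, scaling, the dye term, duplicate spots, limits, the set of 4 narrow arrays, blocks and single arrays. The members, gene lists and marker lists were chosen with earlier results of these data known. From each list, the 2 lowest and 2 highest of the probes that passed at 4-8 h are named. Symbols are those of the platform annotation, and 7 of 7 members matched RefSeq by gene identifier.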

Additional observations from a re-analysis of the deposited data

Results flagged for a closer look

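A test of the difference among the stages of dhd, the moderated F-test over 8 stages, passed narrowly (limma, adjusted p = 0.0482). The fitted range was 2.91, from -6.20 at 12-16 h to -3.29 at pupal stage 2. All 3 arrays of pupal stage 2 were above the arrays of every other stage. Without array a of pupal stage 2 the adjusted p was 0.155, the highest over the 23 fits that left out 1 array, and without array a of larvae it was 0.0157, the lowest.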

How the results depend on the processing

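Of 700 values of a member at a stage under alternatives, 669 kept their direction and side of the threshold, 24 lost and 6 gained the call, and 1 turned: png at 12-16 h, 0.03, was -1.64 without centring (limma, adjusted p = 0.023). The 6 other members were above 0 under none. Uncentred, the median of all probes lay between -1.76 and 0.65, gnu lost its call at 4-8 h (-1.94, adjusted p = 0.233) and png gained one at pupal stage 2 (-2.67). The F-test over stages called 2 members without centring (41% of all probes), 0 without the dye term (14%), 0 with limit values kept (20.5%), 0 with like arrays averaged (13.3%; chosen after seeing the data; r was 0.904 and 0.892) and 0 to 1 when single arrays were left out. The number of all probes lower at 4-8 h, 1414, was 33 uncentred, 464 without the dye term and 118 without the set of 4 arrays, where 4 members passed each time; uncentred, 13871 were lower at 12-16 h against 2973, and 16339 at pupal stage 2 against 3807, and 7 members passed at both. With close duplicate spots only, 2 members were lower at 12-16 h (17.4% of all probes), where 2 of 7 had a value, and 1 member differed between pupal stage 1 and larvae (1.64%) and 1 between adults and 12-16 h (25.1%). With larval arrays alone 0 members, and 0 of all probes, passed in larvae, while 6 members and 5442 probes had an unadjusted p under 0.05. Array letters paired no samples (median r -0.03 for the same letter, 0.01 for others). With the letter as a replicate block, plu at 4-8 h passed (-1.20, adjusted p = 0.0497), raising the count there to 6; counts at the 7 later stages stayed 6, the F-test called 1 and comparisons between stages 0. Each gene had 1 probe, so averaging probes changed nothing.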

Other observations

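Array c of pupal stage 1 held a signal of 1 channel, with no label for which. Its geometric mean over the 2 spots of BigH1 was 954, at the 90.6th percentile of all probes, with spots at 690 and 1320. The other members lay between the 17.2th percentile (gnu, 357) and the 76th (png, 555), and dhd, at 420, was at the median of all probes.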
